A study of Homo sapiens with 10 samples.

Results

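The genes described here encode the machinery that recognises the cap of a messenger RNA and the repressors that hold it back. They were the 4E-BP genes EIF4EBP1 and EIF4EBP2, the cap-binding genes EIF4E, EIF4E2 and EIF4E3, the scaffold genes EIF4G1, EIF4G2 and EIF4G3, and the kinase genes MKNK1 and MKNK2. Each gene was represented by the probe set that the platform annotation gives to it alone, and 9 of the 10 genes had 1 such probe set, among 18279 genes measured in all. EIF4G3 was not analysed here.

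Cap-dependent translation starts when eIF4E binds the cap and eIF4G, a scaffold, ties it to the helicase eIF4A and to the ribosome; the assembly is called eIF4F. A 4E-BP competes with eIF4G for eIF4E and so blocks assembly, until the growth-signalling kinase complex mTORC1 phosphorylates the 4E-BP and it lets go. The MNK kinases dock on eIF4G and phosphorylate eIF4E downstream of the ERK and p38 MAP kinases. All of these controls act on protein, and the arrays measured transcripts only.

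The cells were A549, a human lung adenocarcinoma line, and AD32, which the labels call resistant; the drug was discodermolide, a natural product that stabilises microtubules. The groups were AD32 4E-BP1 in 0.01% DMSO (n = 1, labelled sensitive), AD32 grown in 32 nM discodermolide (n = 3), A549 in 32 nM discodermolide (n = 2, labelled senescent) and A549 in 0.01% DMSO (n = 4, labelled sensitive). All 4 groups were cultured in RPMI medium with serum. The AD32 4E-BP1 line takes its name from the EIF4EBP1 product, and the labels do not say how the line was made or whether it is a clone. The AD32 and AD32 4E-BP1 cells also differed in drug, so the effects of line and drug between them cannot be told apart. Replicates are called biological, with no word on separate cultures, so p-values measure only the spread between these samples. Levels and differences are given on the log2 scale of the deposited signal, a fold is a ratio of signals, and an adjusted p is from limma with Benjamini-Hochberg adjustment for 18279 genes.

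Some arrays stood apart from their group. The AD32 4E-BP1 array correlated over all 24308 probe sets at 0.9955 with A549 DMSO replicate 2, and at no more than 0.9828 with any AD32 array. Its level of SERPINB5, a serpin, was 3.92, against a mean of 10.26 in AD32, and A549 in DMSO had a mean of 3.87. AD32 replicate 3 correlated at 0.9828 with AD32 4E-BP1, and at 0.9649 with its nearest AD32 array. The mean of 8 proliferation genes was 10.39 in AD32 4E-BP1, 5.37, 6.63 and 10.15 in AD32 replicates 1 to 3, 7.13 and 7.40 in A549 in discodermolide, and 7.31, 10.46, 10.51 and 10.48 in A549 in DMSO. AD32 replicate 3 and A549 DMSO replicate 1 were thus each far from the rest of their group on this measure. A549 DMSO replicates 3 and 4 were close to identical (r = 0.9973). The epithelial keratin genes KRT8 and KRT18 were at 12.67 or above on every array, while 4 alveolar type II markers lay between 4.58 and 6.53 and EPCAM, an epithelial surface marker, had at most 3.87. Of 14 markers of leukocytes, endothelium and fibroblasts, 5 stayed under each array's lower quartile (4.77 to 4.94): PTPRC, PECAM1, KDR, DCN and PDGFRA. Others were well above it, among them CD68 (8.34 to 10.71), COL1A1 (7.69 to 8.16) and COL3A1 (up to 8.78). In AD32 relative to A549 in DMSO, COL3A1 was 4.23-fold lower (adjusted p 0.00789), and the epithelial genes KRT7 and CDH1 were higher, by log2 differences of 4.65 (adjusted p 8.19e-07) and 1.11 (adjusted p 0.0357). The part these marker changes have in the results was not tested.

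EIF4EBP1 encodes 4E-BP1, the best studied of the eIF4E repressors. Its log2 signal was 11.61 in AD32 4E-BP1. It was 8.93, 7.99 and 8.63 in AD32, 9.76 and 9.58 in A549 in discodermolide, and 10.23, 9.50, 9.47 and 9.52 in A549 in DMSO. The AD32 4E-BP1 array was the highest of the 10, and all 3 AD32 arrays lay below every other array. The order of the groups was therefore AD32 4E-BP1, then both A549 groups, then AD32, and the A549 groups overlapped. How many of all genes set AD32 apart in this way was not counted.

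In AD32, EIF4EBP1 fell by 1.16 on the log2 scale relative to A549 in DMSO (SE 0.26), a signal 2.24-fold lower, with an adjusted p of 0.0326 from limma. Group means were 8.52 ± 0.48 in AD32 and 9.68 ± 0.36 in A549 in DMSO (SD, n = 3 and 4). It was 1 of 3 measured cap-binding and 4E-BP genes of 9 that passed the threshold of 0.05 in this comparison, where 5.72% of all genes did. In bulk RNA, fewer cells with a transcript and less of it per cell cannot be told apart. The call was lost in 9 of 20 alternatives. These were the fits without AD32 replicate 2 (log2 difference -0.90, adjusted p 0.108), without A549 DMSO replicate 2, 3 or 4 (adjusted p 0.0606, 0.0676 and 0.0759) and without either A549 discodermolide array (adjusted p 0.0619 each). The others were a further quantile normalization (0.07), a fit of the compared groups alone (0.0619) and the averaging of the near-identical A549 DMSO replicates 3 and 4 (0.0716). The direction was the same in every alternative run. The alternatives were not all separate tests. The fits without either A549 discodermolide array and the fit of the compared groups alone coincide here, since a lone array adds nothing to the spread. For the same reason, leaving out the AD32 4E-BP1 array repeats the main fit. Averaging probe sets leaves the difference of a gene with 1 probe set unchanged.

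Relative to A549 in discodermolide, which received the drug at the same concentration, EIF4EBP1 in AD32 differed by -1.15 (SE 0.31), with an adjusted p of 0.0841. This difference passed with array weights (adjusted p 0.00683), without A549 DMSO replicate 1 (0.0293) and without both that array and AD32 replicate 3 (0.0119). A549 in discodermolide differed from A549 in DMSO by -0.01, with a 95% confidence interval from -0.67 to 0.65. The drug-treated and vehicle-treated A549 arrays therefore gave EIF4EBP1 no difference beyond their spread. In the AD32 4E-BP1 array the signal rose 8.52-fold over AD32 (log2 difference 3.09, SE 0.39, adjusted p 0.00708). It stood 3.80-fold above A549 in DMSO (log2 difference 1.93, SE 0.38), and this difference did not pass the threshold over all genes (adjusted p 1). Both of these values, and every other comparison of AD32 4E-BP1, rest on the lone array, which was assumed to vary like the other groups.

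EIF4EBP2 encodes 4E-BP2, a second repressor of the same kind. Its levels were 10.40 in AD32 4E-BP1, 10.05, 9.84 and 10.38 in AD32, 10.21 and 10.12 in A549 in discodermolide, and 9.65, 10.55, 10.04 and 10.01 in A549 in DMSO. The AD32 and A549 arrays overlapped, and AD32 differed from A549 in DMSO by 0.03, with an interval from -0.46 to 0.51. Among the measured 4E-BP genes, EIF4EBP1 alone therefore passed a threshold in any of the 5 comparisons.

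EIF4E encodes the cap-binding protein itself. Its levels were 5.52 in AD32 4E-BP1, 5.53, 5.70 and 5.73 in AD32, 5.75 and 5.75 in A549 in discodermolide, and 5.22, 5.75, 5.71 and 5.27 in A549 in DMSO. All 10 arrays were within the range of A549 in DMSO or just above its upper end, and no comparison passed the threshold. Every value lay below the array medians of 6.50 to 6.63, so a small change would be hard to measure with this probe set. The difference of EIF4EBP1 from EIF4E on each array, taken relative to the mean of A549 in DMSO, was 1.89 in AD32 4E-BP1, -0.80, -1.90 and -1.29 in AD32, -0.18 and -0.37 in A549 in discodermolide, and 0.81, -0.44, -0.43 and 0.06 in A549 in DMSO. The 3 AD32 arrays were the lowest on this relative scale, as they were for EIF4EBP1 alone.

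EIF4E2 encodes a relative of eIF4E that binds the cap without engaging eIF4G and is known mainly as a repressor. Its levels were 8.65 in AD32 4E-BP1, 8.57, 8.80 and 8.66 in AD32, a mean of 8.91 ± 0.13 (SD, n = 2) in A549 in discodermolide, and 8.29, 8.70, 9.15 and 9.13 in A549 in DMSO. The AD32 arrays lay inside the range of A549 in DMSO, and no difference passed the threshold.

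EIF4E3 encodes the third member of the eIF4E family, an atypical cap-binding protein. Its levels were 5.60 in AD32 4E-BP1, 8.08, 8.03 and 7.18 in AD32, 5.67 and 5.40 in A549 in discodermolide, and 5.67, 5.33, 5.65 and 5.31 in A549 in DMSO. The lowest AD32 array was above all 7 other arrays, which lay within a narrow band below the array medians. The share of all genes with AD32 above every other array was not counted.

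EIF4E3 rose 4.84-fold in AD32 relative to A549 in DMSO (log2 difference 2.28, SE 0.23, adjusted p 0.000714). Relative to A549 in discodermolide it rose 4.69-fold (log2 difference 2.23, SE 0.27, adjusted p 0.00313), as the single call among the 9 genes where 3.74% of all genes were called. In AD32 4E-BP1 it fell 4.48-fold relative to AD32 (log2 difference -2.16, SE 0.35, adjusted p 0.0247). EIF4E3 and EIF4EBP1 were the 2 genes called of 9 between AD32 4E-BP1 and AD32, where 0.919% of all genes were called. The line is named for the EIF4EBP1 product, so a high EIF4EBP1 signal in it is not an independent result. EIF4E3 in AD32 4E-BP1 differed from A549 in DMSO by 0.11, with an interval from -0.65 to 0.87. The rise over A549 in DMSO passed in all 20 alternatives, not all of them separate tests, with log2 differences from 2.12 to 2.63. The rise over A549 in discodermolide lost its call without A549 discodermolide replicate 2 (adjusted p 0.055), and the fall in AD32 4E-BP1 lost its call in 9 of 18 alternatives.

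EIF4G1 encodes the main eIF4G scaffold. Its levels were 10.72 in AD32 4E-BP1, 9.85, 10.02 and 10.76 in AD32, 10.34 and 9.89 in A549 in discodermolide, and 9.52, 10.73, 10.08 and 10.13 in A549 in DMSO. The ranges of AD32 and A549 in DMSO overlapped. EIF4G2 encodes a relative of eIF4G that lacks the eIF4E-binding region. Its levels were 12.75 in AD32 4E-BP1, 12.53, 12.51 and 12.74 in AD32, 12.57 and 12.44 in A549 in discodermolide, and 11.87, 12.79, 12.63 and 12.59 in A549 in DMSO. Neither scaffold gene passed the threshold in any comparison, and A549 DMSO replicate 1 was the lowest array for both.

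MKNK1 encodes MNK1, a kinase whose activity follows MAP kinase signalling. Its levels were 8.87 in AD32 4E-BP1, 9.06, 9.13 and 8.63 in AD32, 9.08 and 9.21 in A549 in discodermolide, and 8.67, 8.96, 8.69 and 8.77 in A549 in DMSO. Both discodermolide arrays of A549 lay above all 4 DMSO arrays, with a log2 difference of 0.37 (SE 0.17) that did not pass (adjusted p 0.472).

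MKNK2 encodes MNK2, known for higher basal activity than MNK1. Its levels were 9.12 in AD32 4E-BP1, 9.90, 10.37 and 9.84 in AD32, 10.18 and 9.96 in A549 in discodermolide, and 9.29, 8.84, 8.52 and 8.59 in A549 in DMSO. All 5 arrays of cells in the drug lay above all 5 arrays of cells in DMSO. The share of all genes with this split was not counted. The AD32 and A549 discodermolide arrays overlapped, and so did AD32 4E-BP1 and A549 in DMSO.

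MKNK2 rose 2.34-fold in AD32 relative to A549 in DMSO (log2 difference 1.23, SE 0.21, adjusted p 0.0116). A549 in discodermolide differed from A549 in DMSO by 1.26 (SE 0.24, interval 0.71 to 1.81), which did not pass over all genes (adjusted p 0.0758). These 2 comparisons share their 4 control arrays. None of the 9 genes passed with limma in the drug response of A549, where 0.372% of all genes did and 1 of them, MKNK2, had an unadjusted p under 0.05. In that comparison 3 of the genes, EIF4E, MKNK1 and MKNK2, had both discodermolide arrays above all 4 DMSO arrays, a pattern that 15.2% of all genes showed. AD32 and A549 in discodermolide differed by -0.03, with an interval from -0.61 to 0.54. AD32 4E-BP1 differed from AD32 by -0.92 (SE 0.32), which did not pass (adjusted p 0.363), but passed with array weights (0.033) and without both A549 DMSO replicate 1 and AD32 replicate 3 (0.0173). Without A549 DMSO replicate 1, the A549 drug response of MKNK2 was 1.42 and passed (adjusted p 0.0121). Without AD32 replicate 2, the rise in AD32 was 1.06 and did not pass (adjusted p 0.0517).

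**Figure D1:**
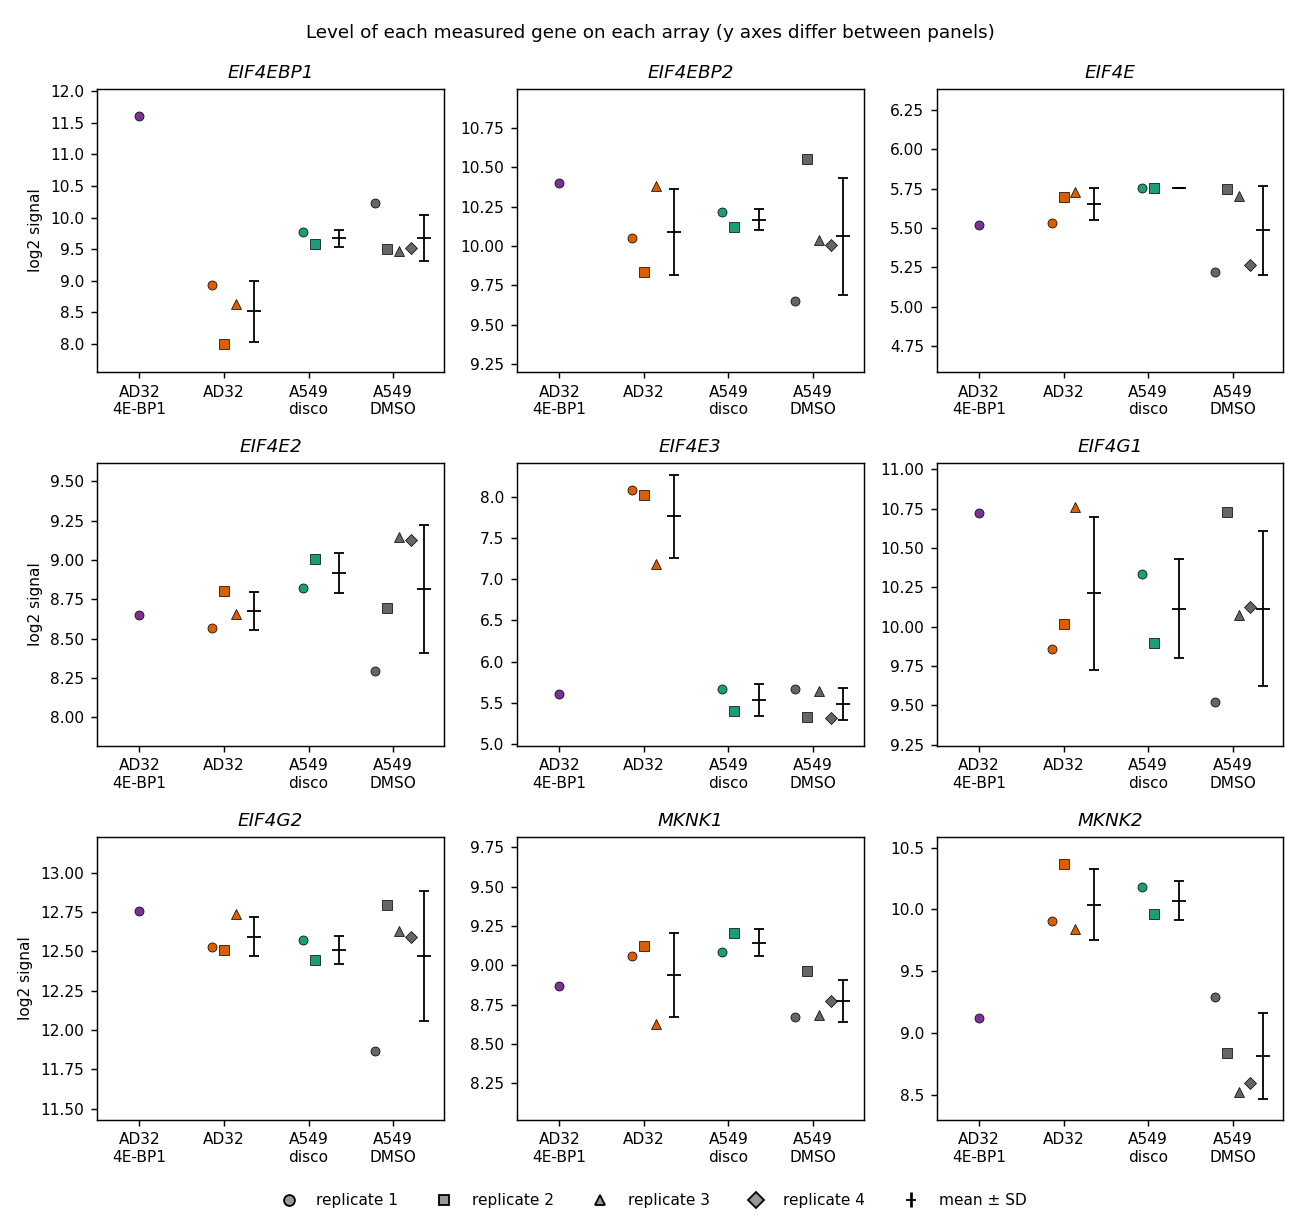
Log2 signal (y axis) of the 9 measured genes on each of the 10 arrays, by group (x axis; "disco" is discodermolide), with the mean and SD beside groups of 2 or more arrays. The 3 AD32 arrays are lowest for EIF4EBP1 and highest for EIF4E3, and for MKNK2 the AD32 and A549 discodermolide arrays all sit above the DMSO arrays.

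The comparison between AD32 4E-BP1 and A549 in DMSO, both without drug, gave no call by limma for any of the 9 genes, at 0% of all genes called. At an unadjusted p under 0.05 it gave 1 gene, EIF4EBP1. The median absolute log2 difference of the 9 genes was 0.28, beside 0.14 over all genes. For AD32 against A549 in DMSO the same medians were 0.17 and 0.18, and for A549 in discodermolide against DMSO they were 0.10 and 0.17. For AD32 4E-BP1 against AD32 they were 0.31 and 0.22, and for AD32 against A549 in discodermolide 0.10 and 0.19. The median of the 9 genes was thus larger than that of all genes in both comparisons of the lone AD32 4E-BP1 array, and no larger in the others. AD32 differs from A549 in DMSO in both line and drug, whose effects cannot be told apart there.

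**Figure D2:**
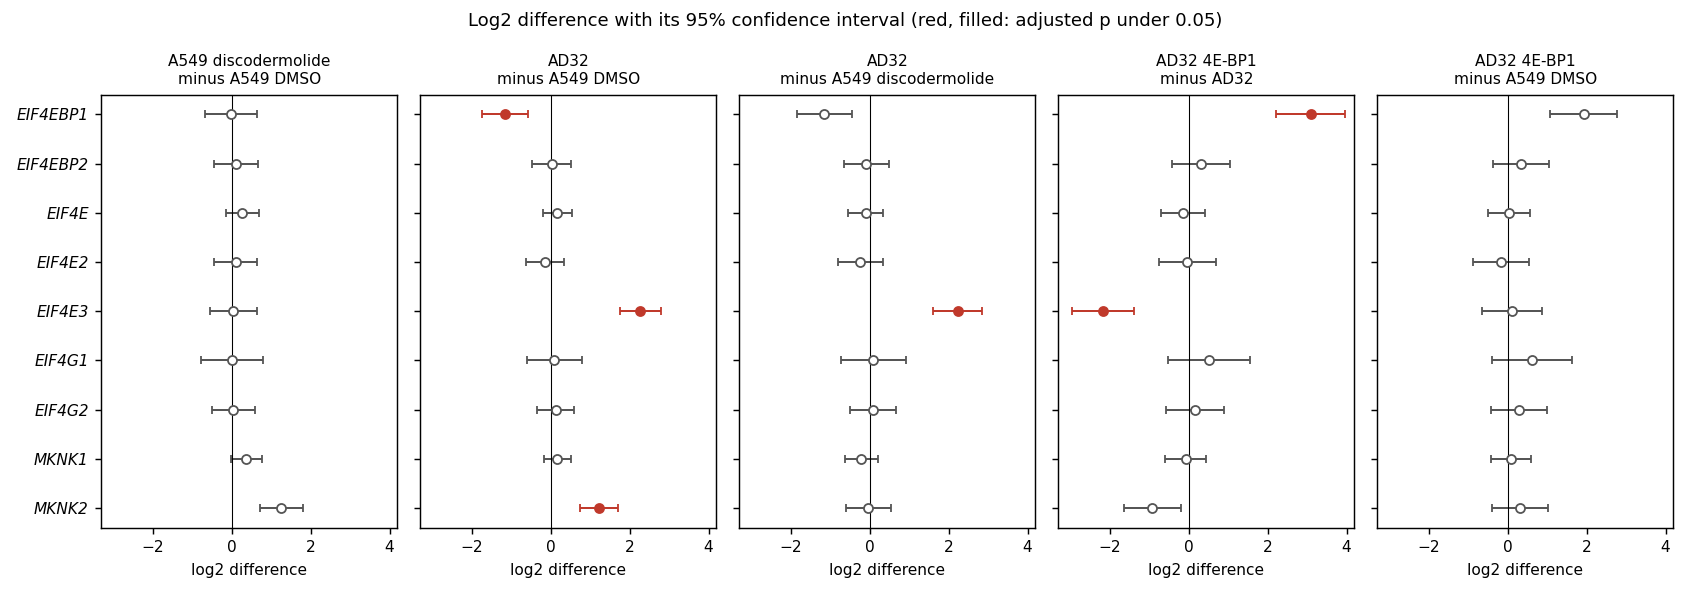
Log2 difference (x axis) of each of the 9 genes (rows) with its 95% confidence interval in 5 comparisons (panels), each the first-named group minus the other, with filled red points for adjusted p under 0.05. EIF4EBP1, EIF4E3 and MKNK2 are the only filled points, and EIF4E3 is filled in opposite directions for AD32 minus A549 DMSO (2.28) and AD32 4E-BP1 minus AD32 (-2.16).

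The 3 genes that passed were set against the proliferation genes, since 1 AD32 and 1 A549 DMSO array went against their groups there. AD32 replicate 3 had a proliferation mean of 10.15, close to the 10.46 to 10.51 of A549 DMSO replicates 2 to 4. At these like levels EIF4E3 was 7.18 in AD32 replicate 3, against 5.31 to 5.65 in the 3 A549 DMSO arrays. MKNK2 was 9.84 in that AD32 array, against 8.52 to 8.84 in those A549 DMSO arrays. EIF4EBP1 was 8.63 in the AD32 array, against 9.47 to 9.52 in the A549 DMSO arrays. In this single array all 3 genes lay on the AD32 side of those A549 DMSO arrays. Its EIF4E3 was well below the 8.08 and 8.03 of the other AD32 arrays. At low proliferation means, A549 in discodermolide (7.13 and 7.40) had MKNK2 levels of 10.18 and 9.96, against 9.29 in A549 DMSO replicate 1 (7.31). The part that proliferation has in the group differences was not tested.

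**Figure D3:**
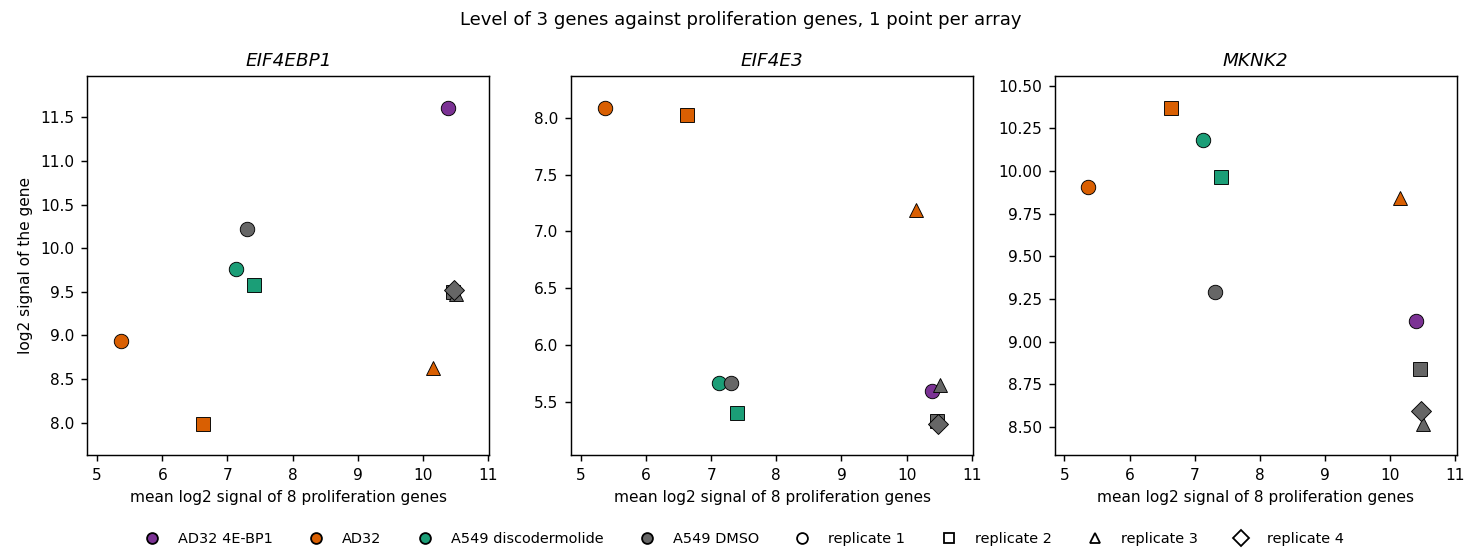
Log2 signal (y axis) of EIF4EBP1, EIF4E3 and MKNK2 against the mean log2 signal of 8 proliferation genes (x axis), 1 point per array, with group by colour and replicate by shape. AD32 replicate 3, at 10.15 on the x axis, has the lowest EIF4E3 of the AD32 arrays (7.18, against 8.08 and 8.03 in the others). In every panel it lies on the AD32 side of all 4 A549 DMSO arrays.

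EIF4E3 and MKNK2 both rose in AD32, so the promoter windows of these genes are shown, with EIF4E, whose level did not pass any test, beside them. The windows come from RefSeq (GRCh38.p14) and run from 250 bases before to 50 after the gene start. They were used for 8 of the 9 measured genes, and EIF4EBP1 is not among the 8. All 3 lie on the minus strand and are written in the direction of transcription, at chr3:71754724-71755023 for EIF4E3, chr19:2051195-2051494 for MKNK2 and chr4:98929084-98929383 for EIF4E. Capitals mark matches on either strand to the E-box (CACGTG), the GC box (GGGCGG) and the TATA box (TATAAA); no match overlaps another.
EIF4E3: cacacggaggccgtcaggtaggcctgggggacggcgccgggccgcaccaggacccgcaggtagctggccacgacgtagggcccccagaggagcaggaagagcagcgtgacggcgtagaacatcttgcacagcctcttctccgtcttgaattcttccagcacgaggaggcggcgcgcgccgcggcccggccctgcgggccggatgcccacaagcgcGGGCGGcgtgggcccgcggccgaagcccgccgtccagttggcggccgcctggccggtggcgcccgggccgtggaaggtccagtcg
MKNK2: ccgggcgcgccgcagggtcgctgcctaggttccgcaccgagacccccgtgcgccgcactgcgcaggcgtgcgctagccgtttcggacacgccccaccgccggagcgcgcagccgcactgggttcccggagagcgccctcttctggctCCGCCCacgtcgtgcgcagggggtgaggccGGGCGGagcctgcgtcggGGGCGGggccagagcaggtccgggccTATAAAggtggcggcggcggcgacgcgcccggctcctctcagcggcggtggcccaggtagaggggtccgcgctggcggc
EIF4E: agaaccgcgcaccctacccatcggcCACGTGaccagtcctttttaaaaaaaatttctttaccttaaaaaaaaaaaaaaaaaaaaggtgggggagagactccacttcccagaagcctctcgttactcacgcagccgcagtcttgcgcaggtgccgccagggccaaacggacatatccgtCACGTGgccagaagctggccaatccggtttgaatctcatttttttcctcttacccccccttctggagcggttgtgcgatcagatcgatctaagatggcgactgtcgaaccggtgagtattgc
The EIF4E window held 2 E-boxes, which begin at positions -225 and -72 from the start, and no GC box. The EIF4E3 window held 1 GC box, at -35, and overlaps the gene GPR27. The MKNK2 window held 3 GC boxes and a TATA box at -29. E-box matches were found in 2 of the 8 windows (EIF4E and EIF4G1), against 7.26% of all 35116 promoter windows. A GC box was found in 7 of 8, against 45.0% of all windows, and a TATA box in 1 of 8, against 11.5%. The AP-1 motif TGANTCA was searched too, and was in 0 of the 8 windows and 7.71% of all windows. These are matches of letters and were not tested against the levels. EIF4E3 and MKNK2 had GC contents of 74.0% and 77.3%, and EIF4E 50.7%.

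The pathway around these genes was read through 5 lists. Of 18 measured partners and regulators of the cap-binding complex (20 listed), 1 passed in any comparison. PDCD4, an inhibitor of the helicase eIF4A, fell by 1.20 on the log2 scale in AD32 relative to A549 in discodermolide (2.30-fold lower, adjusted p 0.0315). That 1 of 18 is near the 3.74% of all genes called in this comparison. Its level did not pass in AD32 relative to A549 in DMSO (log2 difference -0.45, adjusted p 0.276). The list's median difference for AD32 against A549 in DMSO was -0.01, beside 0.01 for all genes.

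Of 27 measured mTORC1 pathway genes (31 listed), 3 passed in AD32 relative to A549 in DMSO (SESN1, SESN3 and PIK3CB), where 5.72% of all genes did. SESN1 encodes a sestrin, a stress-induced inhibitor of mTORC1 signalling, and rose 3.29-fold in AD32 (adjusted p 0.00771). SESN1 also rose in A549 in discodermolide relative to DMSO, by 3.82-fold (adjusted p 0.0423). SESN3, another sestrin, rose 4.56-fold in AD32 relative to A549 in DMSO (adjusted p 0.0208). It fell 13.1-fold in AD32 4E-BP1 relative to AD32 (adjusted p 0.04), to a signal of 4.35 on the lone array, against a mean of 8.06, and this call was lost in 8 of 18 alternatives. The SESN3 signal of 4.35 is under that array's lower quartile of 4.80, so the size of the fall is uncertain. Among the A549 DMSO arrays SESN3 ranged from 5.06 to 6.83. PIK3CB, a catalytic subunit of PI 3-kinase upstream of mTORC1, fell 1.86-fold in AD32 (adjusted p 0.0041). The list's median difference was 0.26 in AD32 and 0.22 in A549 in discodermolide, both relative to A549 in DMSO, beside 0.01 and 0.02 for all genes.

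Of 15 measured MAP kinase genes that feed the MNK kinases (21 listed), 4 rose in AD32 relative to A549 in DMSO and none fell, where 5.72% of all genes were called. Of all 15, 10 had positive and 5 negative differences. DUSP6, a phosphatase of ERK, rose 3.98-fold (adjusted p 0.0115), and MAP2K3, a kinase of p38, rose 2.01-fold (adjusted p 0.00349). MAP2K1, a kinase of ERK, rose 1.66-fold (adjusted p 0.0282), and HRAS, a small GTPase upstream of it, rose 1.56-fold (adjusted p 0.0255). In A549 in discodermolide all 15 had positive differences from DMSO, with a median of 0.42 beside 0.02 for all genes. By limma 0 of these 15 passed there, and 3 had an unadjusted p under 0.05, as 11.1% of all genes did. For AD32 4E-BP1 against AD32 the list's median was -0.32, beside -0.03 for all genes, with 13 of 15 negative. This rests on the lone AD32 4E-BP1 array.

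Of 13 transcripts known to be translated in an eIF4E-sensitive way, BCL2L1, which encodes the survival protein BCL-xL, passed in AD32 relative to A549 in DMSO (2.19-fold higher, adjusted p 0.0115). That is 1 of 13, near the background of 5.72% of all genes. No other comparison gave a call in this list by limma. The unadjusted p was under 0.05 for 4 of the 13 in A549 in discodermolide against DMSO, where it was for 11.1% of all genes. It was for 1 of the 13 in AD32 4E-BP1 against AD32 (9.46% of all genes), and for 0 of the 13 in the remaining comparisons, AD32 against A549 in discodermolide (15.5%) and AD32 4E-BP1 against A549 in DMSO (1.14%).

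Of 30 measured genes for other initiation factors (32 listed), 4 passed in AD32 relative to A549 in DMSO, where 5.72% of all genes did. EIF3E and EIF3H, subunits of eIF3, which bridges eIF4G to the ribosome, fell by 2.54-fold (adjusted p 0.0167) and 1.63-fold (adjusted p 0.0226). EIF2AK4, the amino acid-sensing kinase GCN2, rose 2.21-fold (adjusted p 0.0183). EIF2B2, a subunit of the exchange factor eIF2B, rose 1.80-fold (adjusted p 0.0353). EIF3H fell 1.93-fold relative to A549 in discodermolide too (adjusted p 0.0186). Of the 16 calls in the 5 lists, 4 passed in every alternative: SESN1, PIK3CB, MAP2K3 and BCL2L1 in AD32 relative to A549 in DMSO. Each other call was lost in at least 1 alternative. SESN1 in A549 in discodermolide was lost in 10 of 20 (adjusted p up to 0.364), MAP2K1 and EIF2B2 in AD32 in 10 of 20 each, and HRAS in 8 of 20. In AD32 relative to A549 in DMSO, EIF3H was lost in 6 of 20, EIF3E and SESN3 in 5 each, DUSP6 in 2 and EIF2AK4 in 1. Relative to A549 in discodermolide, PDCD4 and EIF3H were lost in 5 of 20 each.

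**Figure D4:**
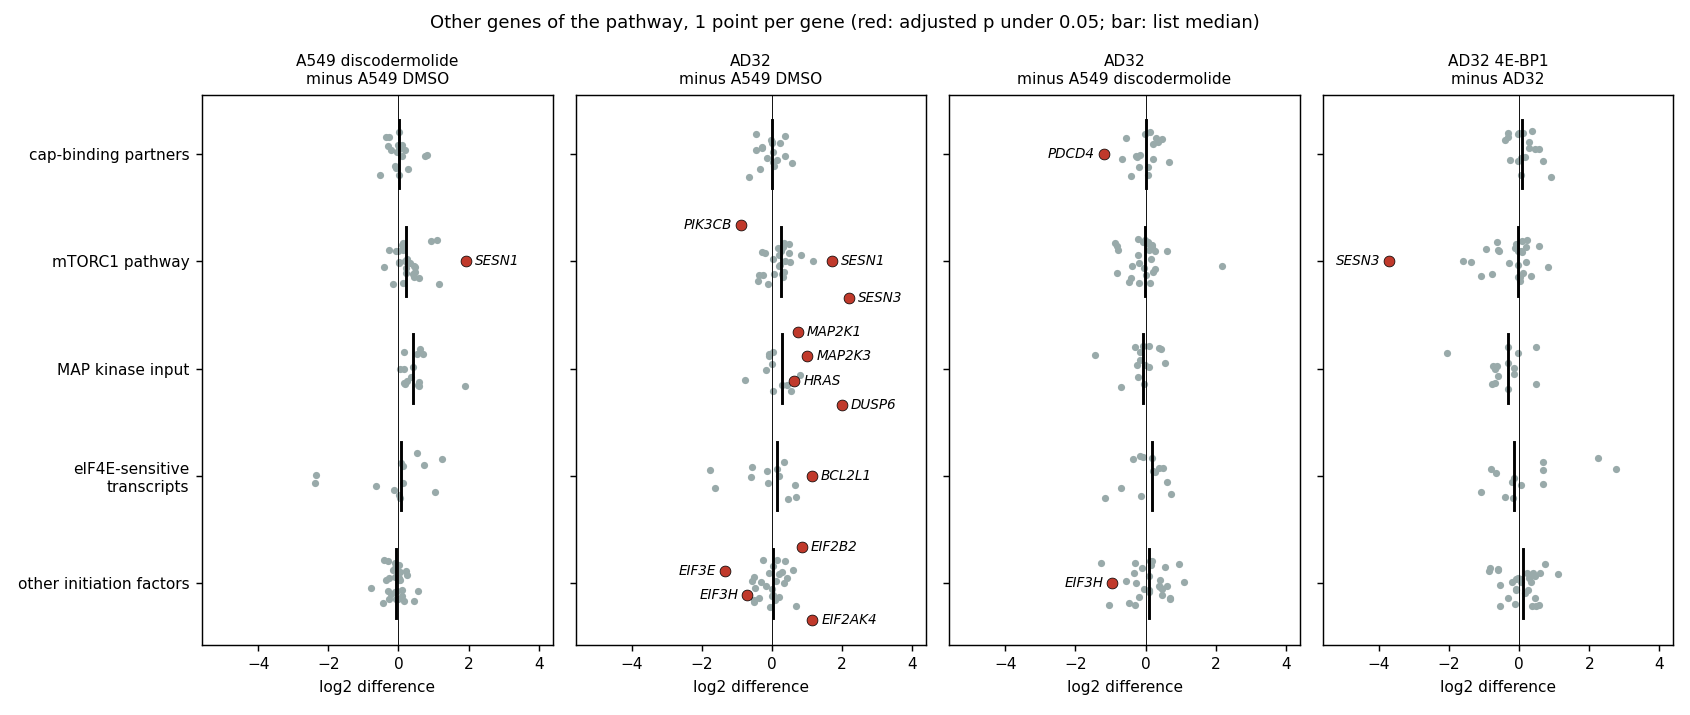
Log2 difference (x axis) of each measured gene of the 5 pathway lists (rows, 1 point per gene, spread vertically for legibility) in 4 comparisons (panels), with the list median as a bar and named red points for adjusted p under 0.05. In A549 discodermolide minus A549 DMSO all 15 MAP kinase genes lie above 0, and in AD32 minus A549 DMSO 4 of them are red.

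The genes whose levels followed each changed gene most closely were found by Pearson correlation over arrays, among 6993 genes whose highest and lowest arrays differed by at least 1 on the log2 scale. The 10 arrays fall into groups, so a high r mostly reflects the order of the groups and is given as a description. EIF4E3 was most like KLF4, a transcription factor (r = 0.992 over 10 arrays), followed by ARFGEF3 (0.99), RNF144B (0.987) and SERPINB5 (0.986). Like EIF4E3, KLF4 was highest in AD32, with a level of 7.52 in AD32 4E-BP1 and means of 9.13 in AD32, 7.52 in A549 in discodermolide and 7.43 in A549 in DMSO. Over the 9 arrays without AD32 4E-BP1, KLF4 (0.991) and ARFGEF3 (0.99) remained among the 4 closest, with TMEM98 (0.991) and TNC (0.988). MKNK2 was most like TOM1L2 (0.977), TEAD3 (0.973), SHANK2 (0.971) and FAM50A (0.96) over 10 arrays, and the same 4 genes led over 9. For TOM1L2 the group means were 8.18 in AD32 4E-BP1, 8.87 in AD32, 9.02 in A549 in discodermolide and 7.92 in A549 in DMSO.

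EIF4EBP1 had looser neighbours over 10 arrays, namely RNF157 (0.893), MPP1 (0.889), PKDCC (0.879) and DPYSL3 (0.872). Over the 9 arrays without AD32 4E-BP1 they were CRTAP (0.974), RASA3 (0.973), NR1H3 (0.971) and PNPLA3 (0.97). The 4 closest genes over 10 arrays were thus not among the 4 closest over 9. RNF157 averaged 8.60 in AD32 4E-BP1, 6.23 in AD32, 7.93 in A549 in discodermolide and 7.66 in A549 in DMSO, highest in AD32 4E-BP1 and lowest in AD32 as EIF4EBP1 was.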

How the data were processed

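Transcripts were measured on 10 Affymetrix arrays. The authors made the deposited log2 values in Affymetrix Expression Console (named in the submitters' processing notes). The log2 scale was judged from their range; the summarisation and normalization steps are not given in the sources consulted. There are no detection calls, and the number of arrays limits the precision. Of 24308 probe sets, 19262 name 1 gene; genes with several took the probe set of highest mean.

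Limma 3.58.1 in R 4.3.3 (lmFit, eBayes) fitted 18279 genes over 4 groups, leaving 6 residual degrees of freedom. P-values are two-sided and Benjamini-Hochberg adjusted over all genes, with a threshold of 0.05. The fit was checked on simulated data for the recovery of planted differences. The simulated noise was independent between arrays, so the check does not cover array effects such as those described above. Named genes were the members, up to 4 called genes per list and comparison by smallest p, and the 4 closest by correlation. Members and lists were chosen with earlier results of these data known. Alternatives were scaling, filter, prior, array weights, compared groups alone, replicate block and each replicate left out. Some of them coincide within a comparison, so tallies of alternatives do not count separate tests. Averaging A549 DMSO replicates 3 and 4 was also tried, and removal of both A549 DMSO replicate 1 and AD32 replicate 3 was added after seeing the data. The labels do not say whether replicate numbers pair the samples, and so few arrays cannot decide it. The main fit treated the samples as unpaired. Figures used matplotlib 3.10.9.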

Additional observations from a re-analysis of the deposited data

Results flagged for a closer look

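EIF4EBP1 in A549 DMSO replicate 1 was 10.23, far from the other 3 A549 DMSO arrays, of which the nearest was 9.52. The gap was 0.934 of the group's range, above Dixon's 95% critical value for 4 samples. The 9 measured genes were examined in this group, and chance alone flags about 1 in 20 groups. The same array had a proliferation mean of 7.31, against 10.46 to 10.51 in the other A549 DMSO arrays.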

How the results depend on the processing

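The count of called genes among the 9 moved with the processing as follows. For A549 in discodermolide against DMSO (0 called) it was 2 with array weights, 0 to 1 with each replicate left out, and 1 without both A549 DMSO replicate 1 and AD32 replicate 3. For AD32 against A549 in DMSO (3 called) it was 1 to 3 with each replicate left out, and 2 with a further quantile normalization, with only these groups fitted, or with A549 DMSO replicates 3 and 4 averaged; EIF4EBP1 lost its call in those last 3 fits. For AD32 against A549 in discodermolide (1 called) it was 2 with array weights, 0 to 2 with each replicate left out, and 2 without both of those arrays. For AD32 4E-BP1 against AD32 (2 called) it was 0 when only these groups were fitted, 1 with A549 DMSO replicates 3 and 4 averaged, 1 to 2 with each replicate left out, and 3, with MKNK2 added, with array weights or without both of those arrays. For AD32 4E-BP1 against A549 in DMSO (0 called) it was 1 with array weights. The causes were not tested. No value reversed its sign and call: of the 9 genes' values under alternatives, 828 kept their side of the threshold, 21 lost it and 10 gained it. With the replicate number as a block the counts were 0, 3 and 1 for the 3 comparisons that could be blocked; deviations of same-numbered AD32 and A549 DMSO arrays correlated at 0.68, -0.26 and 0.41. EIF4E was removed by the filter on low genes, and each gene had 1 probe set, so no other probe set could be tried. With 1 to 4 arrays a group, small differences were not detectable.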
